A study of Mus musculus with 3 samples.

Results

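The genes described here are the 9 genes of the colony stimulating factor family and its receptors, taken by symbol from the 32285 genes in each of the 3 deposited matrices. All 9 were found. The ligand genes are Csf1 (ENSMUSG00000014599), Il34 (ENSMUSG00000031750), Csf2 (ENSMUSG00000018916) and Csf3 (ENSMUSG00000038067). The receptor genes are Csf1r (ENSMUSG00000024621), Csf2ra (ENSMUSG00000059326), Csf2rb (ENSMUSG00000071713), Csf2rb2 (ENSMUSG00000071714) and Csf3r (ENSMUSG00000028859). They were followed across cell classes to show which cells carried RNA for each ligand and which carried RNA for its receptor.

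The study has a single group of 3 single-cell RNA libraries, replicates 1, 2 and 3, made from wildtype C57BL/6 mice. Part of the quadriceps had been removed (volumetric muscle loss), the defect had been filled with particles of polycaprolactone (PCL), a degradable polyester, and muscle and implant were taken after 6 weeks. Magnetic beads against CD45, a leukocyte surface protein, split the cells into positive and negative fractions, which were remixed in equal numbers, so the mix of immune and stromal cells was set by the sort and not by the tissue. No untreated, sham or implant-free group is among the samples, and the labels give neither the age of the mice nor whether each library is a different animal. The p-values thus cover only the spread of these 3 libraries, which may be technical.

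The colony stimulating factors are secreted proteins that control how many myeloid cells form, survive and act. CSF1 and IL-34 are different proteins that bind the same receptor tyrosine kinase, CSF1R, on monocytes, macrophages and some dendritic cells. GM-CSF, encoded by Csf2, binds a private alpha chain (Csf2ra) paired with the common beta chain (Csf2rb), which mice also use for IL-3 and IL-5; mice have a second beta chain gene, Csf2rb2, whose product serves IL-3. G-CSF, encoded by Csf3, binds CSF3R on neutrophils and their precursors.

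After filters on depth and removal of doublets, 17955 cells remained, of which 5246 were in immune-like classes, 12206 in stromal-like classes and 503 in clusters left unnamed. Library totals ran from 104482261 to 192348779 UMIs (unique molecular identifiers, 1 per captured RNA molecule), and 10 to 13 barcodes were shared between each pair of libraries. Cells were clustered without the 9 genes and the pathway genes counted below, and classes were named "-like" from marker genes. The classes were still formed from genes that may vary together with these 9, so tests between classes describe differences and are not independent of cell identity. Levels are given in CPM, the UMIs of a gene in 1000000 UMIs summed over the cells of a class in 1 library, listed in the order replicate 1, 2, 3. They count 3′ ends with no length correction, so a level was compared between classes and not between genes. The 14 macrophage markers summed to 11696 to 13706 CPM in macrophage-like cells against 374 to 522 CPM in fibroblast-like cells, and the 11 neutrophil markers to 78361 to 86675 CPM in neutrophil-like cells against 857 to 969 CPM in macrophage-like cells.

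The level of Csf1 was highest in granulocyte classes, and most of its molecules lay in fibroblast-like cells. In neutrophil-like cells (901 cells) Csf1 stood at 1315, 1416 and 1580 CPM, a mean of 1437 ± 134 (SD, n = 3). In fibroblast-like cells (10200 cells) it stood at 143, 138 and 127 CPM. In monocyte-like cells it stood at 137, 120 and 37.4 CPM, and 749 of the 860 UMIs behind these values lay in 96 cells of clusters that also carried neutrophil markers. The other 462 monocyte-like cells had 13.5, 35.1 and 19.4 CPM, below the fibroblast-like values. The neutrophil-like values lay above those of every other class with at least 20 cells in each library, and the fibroblast-like range overlapped that of all monocyte-like cells. Mural-like cells, the cells around vessels, had 88.2, 75.4 and 58.8 CPM, and macrophage-like cells had 81.7, 62 and 47.8 CPM. Tenocyte-like cells, which make tendon matrix, had 52.9, 66.6 and 67.3 CPM, and endothelial-like cells had 32.6, 28.8 and 37.2 CPM. Dendritic-like cells were near the bottom, with 0, 1.61 and 0 CPM in the cDC1-like class.

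The next step down the order from neutrophil-like to fibroblast-like cells was 4.19 log2 (adjusted p = 1.25e-11), and the step from fibroblast-like to monocyte-like cells, 0.65 log2 (adjusted p = 0.0907), did not pass. A call required, here and in what follows, at least 1 log2 and an adjusted p (Benjamini-Hochberg, over all genes tested) under 0.05 in edgeR's quasi-likelihood test on sums per library. The fits also hold a factor for RNA composition, so a step to or from neutrophil-like cells can differ from the ratio of the CPM values. Over all pairs of the 11 classes with at least 20 cells in each library, 288 of 440 tests of these genes were called (Csf1 38 of 55), where 40.5% of all gene and pair tests were called. The 288 include 19 of 55 tests of Csf3, which passed the filter on low counts only through endothelial-like cells. Of the 80 tests between classes that neighbour each other in the order of a gene's mean level, 22 were called, and 11.8% of the same tests over all genes, each gene with its own order.

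Basophil-like cells carried more Csf1 still, at 3259, 2432 and 3822 CPM from 444 UMIs in 24 cells. Their neutrophil markers, 3 of 11 of which were above 0, summed to 386, 180 and 170 CPM. The class held 6, 17 and 1 cells, so it entered no test. Mast-like cells had 779, 356 and 121 CPM of Csf1 and NK-like cells 221, 60.4 and 494 CPM. Neutrophil markers summed to 224 to 6689 CPM in mast-like cells (9 of 11 above 0) and 5091 to 11900.4 CPM in NK-like cells (10 of 11), and their part in those 2 classes' Csf1 was not tested.

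Within the neutrophil-like class the Csf1 level split by cluster. The 565 cells led by Il1f9, Hcar2 and Acod1 had 1967, 1940 and 2141 CPM of Csf1. The 336 cells led by Retnlg, S100a9 and Cxcr2, genes of circulating mature neutrophils, had 532, 591 and 548 CPM. The 2 ranges were far apart in all 3 libraries.

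Most neutrophil-like cells carried Csf1 RNA. At an equal depth of 2000 UMIs per cell, 68.4% ± 4.1 of neutrophil-like cells and 23.6% ± 1.4 of fibroblast-like cells had a Csf1 UMI (SD, n = 3 libraries), against 0.926% of cDC2-like cells. Without thinning the shares were 81.5% and 84.0%, at median depths of 5155 UMIs in neutrophil-like, 26098 in fibroblast-like and 15540 in cDC2-like cells. The fibroblast-like class held 59.1%, 83.7% and 73.3% of all Csf1 UMIs, and the neutrophil-like class 19.6%, 7.58% and 11.3%. These shares depend on the CD45 remix and on how many stromal cells each library held (56.5%, 81.5% and 59.5% of cells).

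The start region of Csf1 is printed because it alone among the 5 members whose promoters were used held a copy of the classical kappaB decamer. The decamer was searched by its letters on both strands. The printed region covers the 250 bases before the start site, chr3:107760470-107760719, minus strand of GRCm38.p6 (RefSeq). The capitals mark and spell the match, which is read as the decamer on the opposite strand, 154 bases before the start.
Csf1: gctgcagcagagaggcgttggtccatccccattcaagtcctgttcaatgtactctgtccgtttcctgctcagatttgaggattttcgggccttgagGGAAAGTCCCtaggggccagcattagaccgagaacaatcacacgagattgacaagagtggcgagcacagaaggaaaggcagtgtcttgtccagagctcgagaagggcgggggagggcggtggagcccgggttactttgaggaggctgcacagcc
The decamer was present in 46 of 32851 such windows (0.14%). A match of letters is a description and not a binding site.

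Il34 RNA, for the other CSF1R ligand, was stromal and was highest in mural-like cells. Mural-like cells (331 cells) had 227, 164 and 198 CPM. Fibroblast-like cells had 53.5, 52.1 and 60.2 CPM, and Schwann or glial-like cells (60 cells) 40.9, 40.4 and 59.4 CPM. Tenocyte-like cells had 24.5, 21.4 and 34.4 CPM, and endothelial-like cells 8.68, 4.68 and 10.5 CPM. Macrophage-like cells had 1.73, 0.902 and 0.792 CPM, and T-like cells had no Il34 UMI. The mural-like, fibroblast-like, tenocyte-like and endothelial-like ranges did not overlap, and each step of that order was called, at 1.63 log2 (adjusted p = 1.12e-09), 1.11 log2 (adjusted p = 0.000158) and 1.98 log2 (adjusted p = 5.1e-07). Mural-like cells also held all 11 fibroblast markers, at a summed 5438 to 6699 CPM, so the difference of Il34 from fibroblast-like cells was measured in a class with some fibroblast genes, whose part was not tested.

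An Il34 UMI was found in 28.8% ± 4.5 of mural-like cells and 7.85% of fibroblast-like cells at 2000 UMIs per cell, against 0.256% of macrophage-like cells. Without thinning, 76.0% of mural-like cells (median 14770 UMIs) had one, and the median depth of macrophage-like cells was 12339.5 UMIs. Fibroblast-like cells, the most numerous class, held 89.7%, 94.6% and 91.4% of all Il34 UMIs.

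Csf2, the GM-CSF gene, was rare and came from a small set of fibroblast-like cells. Fibroblast-like cells had 2.77, 3.02 and 1.10 CPM, from 222, 436 and 73 UMIs. Endothelial-like, mural-like, tenocyte-like, lymphatic endothelial-like and muscle fibre-like cells had no Csf2 UMI in any library, and neither did neutrophil-like, T-like or cDC2-like cells. In each library a count of 0 allows up to 1.04 to 3.64 CPM in neutrophil-like cells and 3.35 to 9.32 CPM in T-like cells. Against a floor of 3 counts per library (0.284, 0.269 and 0.478 CPM), Csf2 was at least 9.77-fold, 11.2-fold and 2.30-fold higher in fibroblast-like cells than in all other stromal-like cells together. The 731 UMIs lay in 118 of 10200 cells, 31, 68 and 19 by library, at 6.19 UMIs per such cell and up to 47 in a single cell. In 24 of these cells there were 10 or more Csf2 UMIs, and those 24 held 64.6% of the class's Csf2 UMIs. Few cells thus held most of its molecules.

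The 118 cells with a Csf2 UMI had a median of 42376.5 UMIs in all, against 25968 in the other fibroblast-like cells. A UMI of Ptprc, which encodes CD45, was found in 5.08% of them and in 4.52% of the other fibroblast-like cells, against 86.0% of macrophage-like cells. Fibroblast-like cells held 95.3%, 97.8% and 84.9% of all Csf2 UMIs, and 1.12% of them had a UMI without thinning (0.295% ± 0.19 at 2000 UMIs).

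By level, ILC2-like cells, type 2 innate lymphoid cells, had more Csf2, at 67.8, 24.7 and 33.9 CPM. That rests on 7, 1 and 2 UMIs in 20 cells, 6 of which had a UMI. The lymphoid classes summed had 5.74, 6.79 and 3.51 CPM (13 UMIs) against 0.0905, 0.373 and 0.486 CPM in the other immune-like cells. The groups did not overlap, and the difference was 4.10 ± 0.745 log2 (SE; adjusted p = 0.0028). Csf2 passed the filter on low counts only through the lymphoid side, so this test could only have called it higher. Of those 13 UMIs 10 lay in ILC2-like cells, and T-like cells had none. Macrophage-like cells had 17 Csf2 UMIs, of which 4 remained once the subclusters led by genes of other cell types were left out.

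Csf3, the G-CSF gene, was a gene of endothelial-like cells in these libraries. Endothelial-like cells (862 cells) had 71.8, 90.4 and 37.2 CPM, a mean of 66.5 ± 27 (SD, n = 3). Neutrophil-like cells had 5.89, 1.57 and 0 CPM, fibroblast-like cells 0.761, 1.07 and 0.316 CPM and macrophage-like cells 0.454, 0.676 and 0.369 CPM. Lymphatic endothelial-like cells, which line lymph vessels, had no Csf3 UMI, which allows up to 1.26 to 2.73 CPM by library. Every endothelial-like value was above every value of the other tested classes, and the step to neutrophil-like cells was 3.18 log2 (adjusted p = 2.53e-07). Csf3 passed the filter on low counts of that fit only through endothelial-like cells. The direction of the step was thus set in advance, and its adjusted p adds no support. The 791 UMIs lay in 148 cells, at 5.34 UMIs per such cell, and 25 of those cells held 56.1% of them. A Csf3 UMI was found in 16.6% of endothelial-like cells (median 8565 UMIs), and in 10.1% ± 3.3 at 2000 UMIs against 0.0541% of macrophage-like cells. Endothelial-like cells held 78.5%, 67.7% and 73.3% of all Csf3 UMIs. Both endothelial-like clusters carried it, at 69.9, 89.5 and 35.9 CPM in 549 deep cells and 118, 108 and 53.7 CPM in 313 shallow cells.

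**Figure D1:**
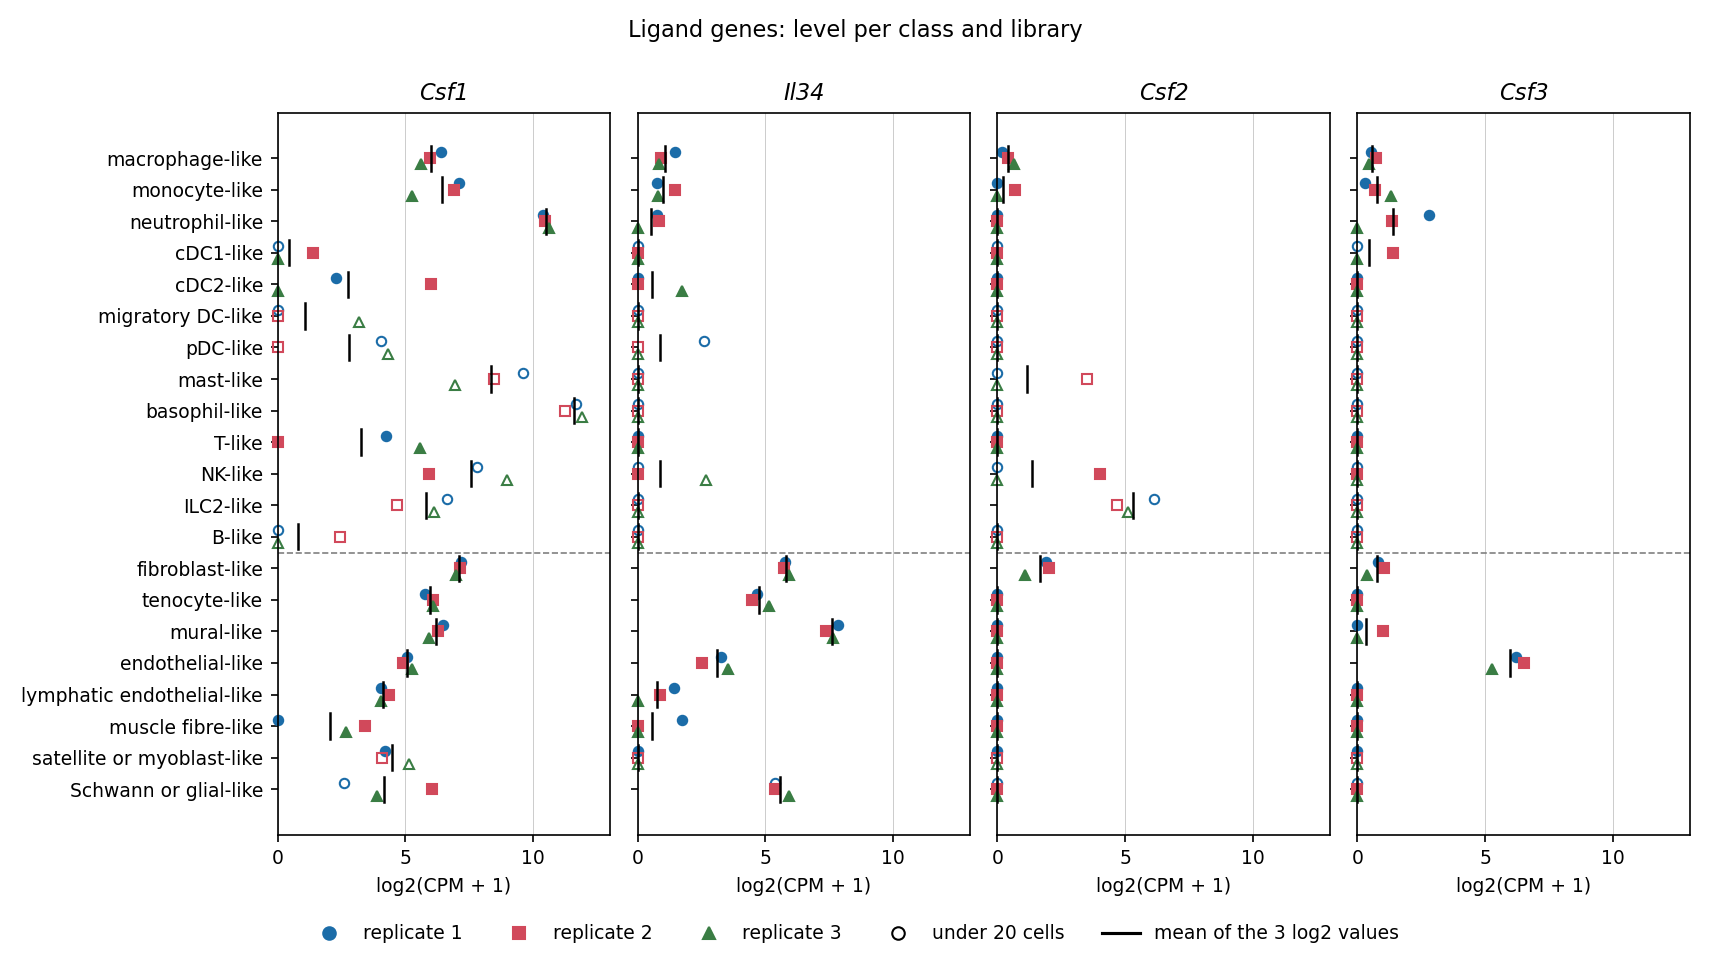
Level of each ligand gene, as log2(CPM + 1) on the horizontal axis, in every named class and library; open symbols mark a class with under 20 cells in that library, black bars the mean of the 3 log2 values, and the dashed line divides immune-like from stromal-like classes. Csf1 peaks in basophil-like and neutrophil-like cells, Il34 in mural-like cells and Csf3 in endothelial-like cells, while Csf2 is above 0 in all 3 libraries only in ILC2-like, fibroblast-like and macrophage-like cells.

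Fibroblast-like cells differed among themselves in which ligand they carried. They were divided into 10 subclusters, 9 of which had at least 20 cells in each library; over these, 24 of 81 tests of the family were called, 12 in each direction, where 12.3% of all gene and subcluster tests were called. Csf2 lay almost wholly in 3 subclusters: subclusters 4 (Kera, Spon2), 5 (Adgrl3, Serpinb2, Spp1) and 9 (the proliferation genes Top2a and Mki67) held 697 of its 731 UMIs (95.3%) and 26.9% of fibroblast-like cells. Its level was 7.89, 6.73 and 2.23 CPM in subcluster 4. It was 5.48, 6.37 and 2.70 CPM in subcluster 5 and 9.0, 10.1 and 4.25 CPM in subcluster 9. In subcluster 3 (Kirrel3, Rgs16, Saa3) it was 0, 0.0896 and 0 CPM. Each of the 3 subclusters was above the mean of the others, by 3.78, 3.50 and 4.24 log2 (adjusted p = 4.73e-12, 5.46e-12 and 2.15e-13). Csf2 passed the filter on low counts through these same 3 subclusters, so the adjusted p-values add no support to its levels. Its calls are among the 24.

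Il34 was called higher in subclusters 5 and 9, and in the shallow subcluster 8 (median 1100.5 UMIs). In subcluster 8 it was 36.9, 147 and 52.4 CPM from 57 UMIs, and the call was lost without replicate 2 (0.53 log2, adjusted p = 0.428) and with library totals only (0.94 log2). It reached 160, 129 and 153 CPM in subcluster 5, 102, 81.6 and 94.2 CPM in subcluster 9 and 64.2, 63.4 and 74.9 CPM in subcluster 4. It was 7.98, 10.4 and 9.5 CPM in subcluster 3. Subcluster 5 lay 2.04 log2 above the mean of the others (adjusted p = 5.08e-15) and subcluster 3 lay below it (-2.12 log2, adjusted p = 2.12e-11), with no overlap between the 2.

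Csf1 had a different order. It was 214, 206 and 196 CPM in subcluster 3 and 220, 179 and 159 CPM in subcluster 2 (Car8, Smpd3), against 85.3, 84.8 and 71.8 CPM in subcluster 4 and 95, 96.5 and 87.9 CPM in subcluster 5. These ranges did not overlap, but no subcluster passed the call of 1 log2 for Csf1. The beta chain gene Csf2rb2 was also highest in subcluster 3, at 23.6, 23.9 and 20.1 CPM, against 1.21, 1.93 and 2.77 CPM in subcluster 2. Subcluster 3 lay 1.91 log2 above the mean of the others for it (adjusted p = 2.47e-14). Csf3, with 236 UMIs in 67 fibroblast-like cells, was called higher in subcluster 3 (2.04 log2, adjusted p = 0.00611). It was also called higher in subcluster 7 (1.73 log2, adjusted p = 0.0458), a call that was lost under several alternatives.

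**Figure D2:**
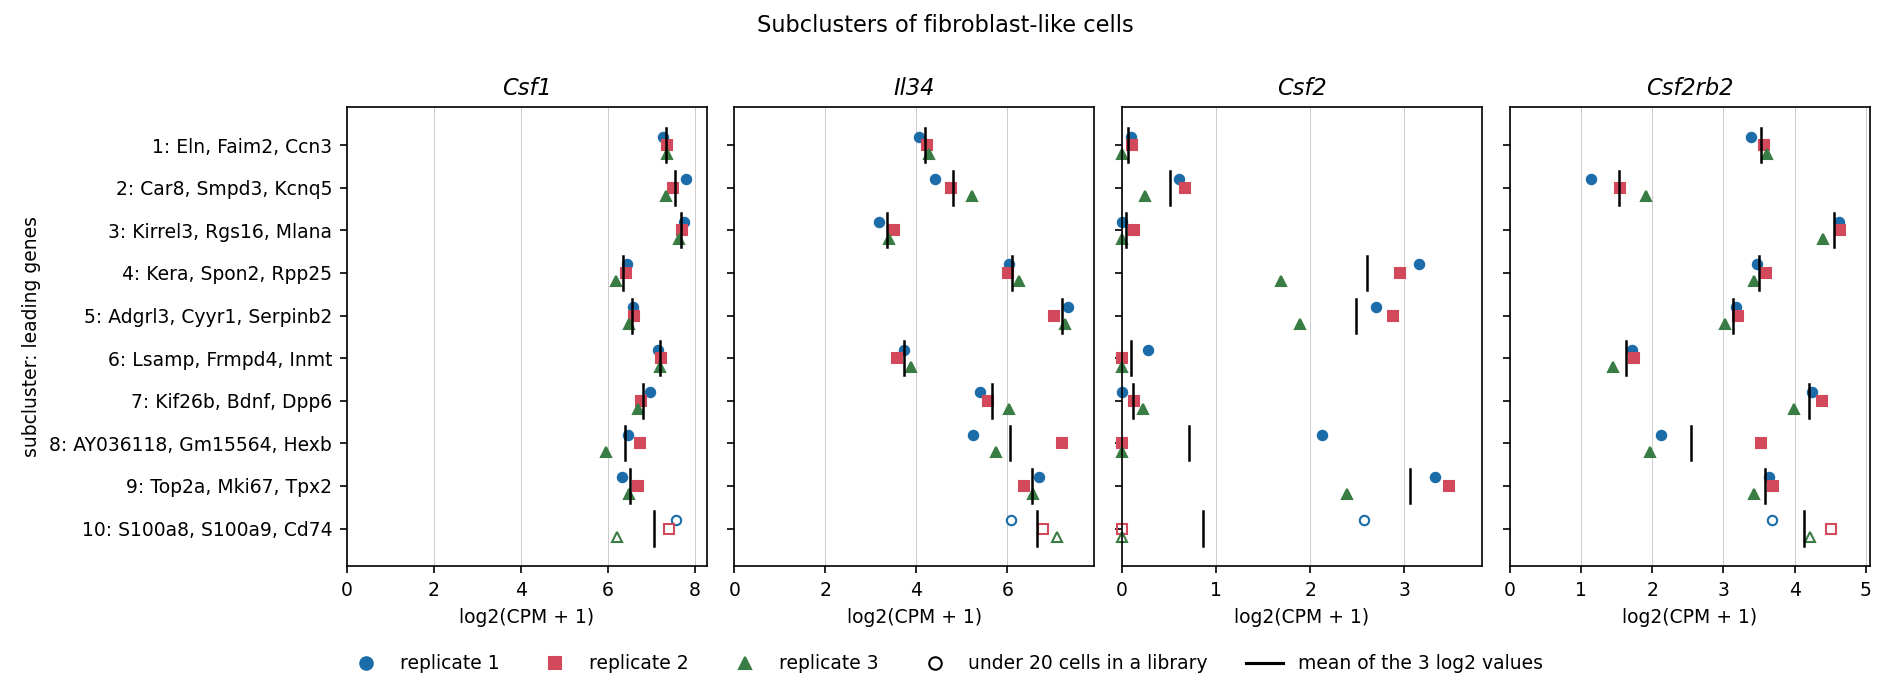
Level of Csf1, Il34, Csf2 and Csf2rb2, as log2(CPM + 1), in the 10 subclusters of fibroblast-like cells, each named by its leading genes, with 1 symbol per library and black bars for the mean of the 3 log2 values. Csf2 stands out in subclusters 4, 5 and 9 in all 3 libraries, Il34 is highest in subcluster 5, and Csf1 and Csf2rb2 are high in subcluster 3.

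As a compartment, stromal-like cells were higher in 3 of the 4 ligands and immune-like cells in all 5 receptors. In that comparison 17632 genes were tested, of which 19.4% were higher on the immune-like side and 29.7% on the stromal-like side. Il34 was 1.4, 0.858 and 0.776 CPM in immune-like against 52.1, 51.0 and 59.9 CPM in stromal-like cells, a difference of -5.61 log2 (adjusted p = 3.56e-07). Csf3 differed by -2.17 log2 (adjusted p = 0.000146) and Csf2 by -2.0 log2 (adjusted p = 0.00439), with no overlap for either. Csf1 was 196, 204 and 105 CPM in immune-like and 131, 131 and 119 CPM in stromal-like cells, higher in 2 of 3 libraries, and was not called (0.40 ± 0.158 log2, SE; adjusted p = 0.0529). With each class weighted equally in place of its cells, Csf1 was called higher in immune-like cells (1.24 log2, adjusted p = 0.000357), and the Csf3 difference became 0.14 log2 with no call.

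Within the stromal side, fibroblast-like cells were set against all other stromal-like cells, where 13.6% of genes were higher and 16.9% lower. Of the 9 genes 3 were higher, 3 lower and 3 not called. The higher genes included Csf2, which had no UMI in the other stromal-like cells. It passed the filter on low counts only through the fibroblast-like side and could only have been called higher. Csf1 was 143, 138 and 127 against 38.4, 43 and 38.4 CPM, a difference of 1.99 ± 0.0715 log2 (SE; adjusted p = 1.9e-06). Csf3, Csf2rb and Csf2rb2 were lower in fibroblast-like cells (-4.98, -4.72 and -2.11 log2), the other side being rich in endothelial-like cells. With each class weighted equally Csf2rb2 was instead called higher in fibroblast-like cells (1.45 log2, adjusted p = 5.91e-05), Csf3 turned to 2.68 log2 with no call (adjusted p = 0.233), and Il34 was called higher (2.81 log2, adjusted p = 6.46e-13). That weighting took the share of calls that were higher to 80.9%. Without the factor for RNA composition the median of all genes moved by -0.22 log2 and the share of calls that were higher from 44.6% to 35.6%.

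**Figure D3:**
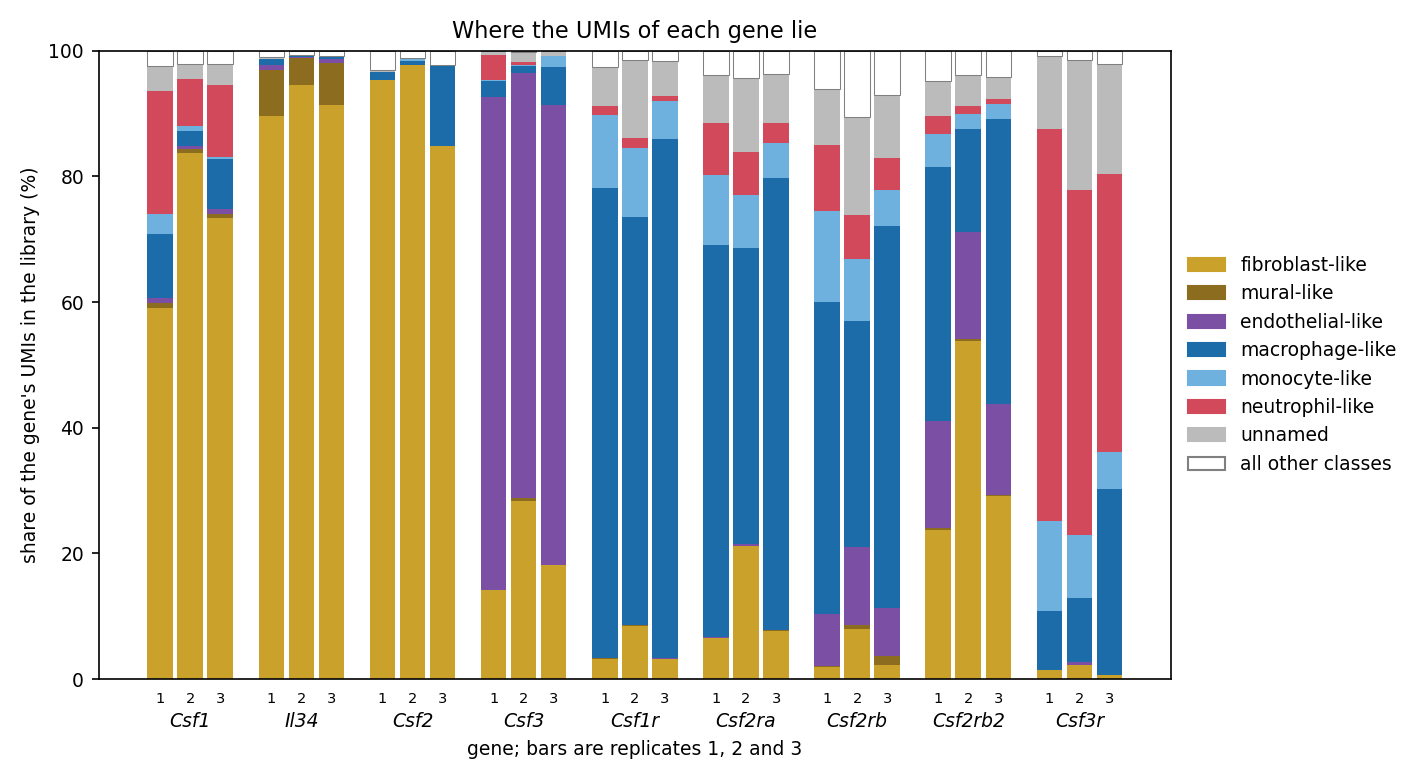
Share of each gene's UMIs that lie in cells of each class, in percent on the vertical axis, with bars for replicates 1, 2 and 3 of each gene. Fibroblast-like cells hold most UMIs of Csf1, Il34 and Csf2, endothelial-like cells most of Csf3, macrophage-like cells most of Csf1r, and macrophage-like and neutrophil-like cells the largest shares of Csf2ra (47.2% to 71.8%) and Csf3r.

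Csf1r, the receptor for CSF1 and IL-34, marked macrophage-like and monocyte-like cells. Macrophage-like cells (3326 cells) had 532, 552 and 554 CPM, and monocyte-like cells (558 cells) had 451, 499 and 564 CPM. Next came cDC2-like cells, a class of conventional dendritic cells, with 139, 156 and 136 CPM, T-like cells with 226, 85.7 and 71.4 CPM and neutrophil-like cells with 88, 95.6 and 112 CPM. The macrophage-like and monocyte-like ranges overlapped and did not differ beyond their spread (0.13 log2, adjusted p = 0.748). Both lay above the cDC2-like range, with a step of 1.90 log2 from monocyte-like to cDC2-like cells (adjusted p = 6.95e-05). T-like cells also held all 14 macrophage markers, at a summed 930, 1342 and 1329 CPM, and the part of those in their Csf1r was not tested. Stromal-like cells had 6.76, 4.23 and 6.45 CPM against 453, 426 and 497 CPM in immune-like cells, a difference of 6.38 log2 (adjusted p = 1.05e-07).

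In the muscle fibre-like class Csf1r moved together with macrophage markers. It had 14.2, 4.91 and 102 CPM of Csf1r while its macrophage markers, 13 of 14 above 0, summed to 187, 108 and 1542 CPM. Both were highest in replicate 3. The part of the markers in that level was not tested.

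A Csf1r UMI was found in 63.7% ± 5.1 of monocyte-like and 60.3% ± 3.6 of macrophage-like cells at 2000 UMIs per cell, against 1.06% of fibroblast-like cells. Without thinning the shares were 92.4% (median 12980 UMIs) and 85.3% (median 12339.5 UMIs), against 11.8% of fibroblast-like cells (median 26098 UMIs). Macrophage-like cells held 74.8%, 64.8% and 82.6% of all Csf1r UMIs. Basophil-like cells, high in Csf1, had no Csf1r UMI in their 24 cells, which allows up to 31.7 to 255 CPM by library.

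The private alpha chain of the GM-CSF receptor, Csf2ra, stood at similar CPM in the main myeloid classes. It was 281, 262 and 268 CPM in neutrophil-like cells, 251, 258 and 256 CPM in macrophage-like cells and 245, 244 and 275 CPM in monocyte-like cells. It was 185, 191 and 246 CPM in cDC2-like and 113, 101 and 118 CPM in cDC1-like cells. Fibroblast-like cells had 7.9, 7.1 and 7.84 CPM and endothelial-like cells 2.54, 3.45 and 3.51 CPM, far below each of these classes. Basophil-like cells, with 3 Csf2ra UMIs in 24 cells, had 19.3, 21.1 and 0 CPM. The monocyte-like and macrophage-like ranges overlapped (0.02 log2, adjusted p = 0.963), as did the monocyte-like and cDC2-like ranges (0.38 log2, adjusted p = 0.249). The step from neutrophil-like to macrophage-like cells was called at 1.06 log2 (adjusted p = 2.25e-05) although their CPM differed little, because the fit also holds a factor for RNA composition, which is given with the neutrophil-like comparison. A Csf2ra UMI was found in 42.2% ± 6.1 of monocyte-like cells at 2000 UMIs per cell (86.7% without thinning), against 0.587% of endothelial-like cells.

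The beta chain gene Csf2rb joined myeloid and endothelial-like cells. Neutrophil-like cells had 360, 272 and 357 CPM, cDC2-like cells 263, 344 and 260 CPM and monocyte-like cells 318, 294 and 245 CPM. Macrophage-like cells had 202, 200 and 187 CPM, and endothelial-like cells had 170, 152 and 199 CPM. The macrophage-like and endothelial-like ranges overlapped (0.23 log2, adjusted p = 0.524). Fibroblast-like cells had 2.40, 2.75 and 1.98 CPM. Basophil-like cells had 1350, 1523 and 680 CPM and mast-like cells 277, 461 and 250 CPM, both untested for want of cells; basophils and mast cells are known to respond to IL-3 through this chain.

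Endothelial-like cells therefore held the beta chain with almost none of the GM-CSF alpha chain. At 2000 UMIs per cell, 24.6% ± 1.5 of endothelial-like cells had a Csf2rb UMI against 0.48% of fibroblast-like cells, and 0.15% had UMIs of both Csf2ra and Csf2rb. In macrophage-like cells 10.6% had both, in monocyte-like and in neutrophil-like cells 15.9%. The macrophage markers summed to 413, 335 and 563 CPM in endothelial-like cells, and to 374, 457 and 522 CPM in fibroblast-like cells, whose Csf2rb was at most 2.75 CPM. In the deep endothelial-like cluster alone Csf2rb was 173, 152 and 202 CPM. The part of macrophage RNA in the endothelial-like Csf2rb was not tested.

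The second beta chain gene, Csf2rb2, was highest among tested classes in endothelial-like cells. They had 128, 131 and 140 CPM. Macrophage-like cells had 59, 58.1 and 52.9 CPM, monocyte-like cells 41.4, 44.7 and 39.6 CPM and neutrophil-like cells 35.3, 31.3 and 20.6 CPM. Fibroblast-like cells had 10.5, 11.6 and 9.71 CPM. The endothelial-like range lay above all of these, with a step of 1.18 log2 to macrophage-like cells (adjusted p = 3.11e-07). The step from fibroblast-like to mural-like cells, 1.69 log2, was also called (adjusted p = 0.000171). Lymphatic endothelial-like cells had 3 Csf2rb2 UMIs and 14 Csf2rb UMIs in 237 cells, so neither beta chain gene was at the endothelial-like level there. Among small classes basophil-like cells had 868, 582 and 255 CPM and pDC-like cells, plasmacytoid dendritic cells, 169, 130 and 142 CPM. By share of Csf2rb2 UMIs, fibroblast-like cells, the most numerous class, held the most of any named class, 35.6% ± 16 (SD, n = 3 libraries).

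The ratio of the 2 beta chain genes differed between 4 of the larger classes by more than the spread between libraries. Csf2rb2 made up 81.4%, 80.9% and 83.0% of the beta chain UMIs in fibroblast-like cells. It made up 42.9%, 46.3% and 41.3% in endothelial-like cells and 22.6%, 22.5% and 22.0% in macrophage-like cells. In neutrophil-like cells it made up 8.95%, 10.3% and 5.47%. None of these 4 ranges overlapped. Other classes did overlap them, such as cDC2-like cells (13.2%, 9.02% and 12.6%) and pDC-like cells (45.2%, 51.4% and 30.3%). The 2 transcripts are alike (92.3% identical over 4665 aligned bases, 86.51% over their last 500 bases), so reads they share could have been dropped or assigned to the other gene, and the split is uncertain to that extent. At 2000 UMIs per cell a Csf2rb2 UMI was found in 19.0% ± 3 of endothelial-like cells (47.9% without thinning), against 1.02% of mural-like cells, and 8.02% of endothelial-like cells had UMIs of both genes.

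Csf3r, the G-CSF receptor gene, was carried by nearly every neutrophil-like cell. Neutrophil-like cells had 1885, 1748 and 1548 CPM, a mean of 1727 ± 169 (SD, n = 3). Monocyte-like cells had 281, 244 and 123 CPM and macrophage-like cells 33.4, 47.1 and 44.9 CPM. Fibroblast-like cells had 1.51, 0.65 and 0.286 CPM and endothelial-like cells, the main source of Csf3, 1.48, 3.45 and 0.438 CPM. Among the tested classes these first 3 did not overlap, and their steps were 4.02 log2 (adjusted p = 1.08e-10) and 2.24 log2 (adjusted p = 7.33e-06). NK-like cells, untested for want of cells, had 85.8, 136 and 207 CPM, a range that overlapped the monocyte-like one and lay above the macrophage-like one; their neutrophil markers are given with Csf1. A Csf3r UMI was found in 90.4% ± 1.4 of neutrophil-like cells at 2000 UMIs per cell (95.4% without thinning), against 0.177% of fibroblast-like cells (median depths 5155 and 26098 UMIs). UMIs of both Csf1 and Csf3r were found in 61.0% ± 3.4 of neutrophil-like cells.

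The start region of Csf3r is printed because G-CSF receptor transcription is known to use PU.1, whose core motif, GAGGAA, was searched on both strands. The capitals mark its copy 86 bases before the start, in chr4:126024409-126024658, plus strand of GRCm38.p6 (RefSeq).
Csf3r: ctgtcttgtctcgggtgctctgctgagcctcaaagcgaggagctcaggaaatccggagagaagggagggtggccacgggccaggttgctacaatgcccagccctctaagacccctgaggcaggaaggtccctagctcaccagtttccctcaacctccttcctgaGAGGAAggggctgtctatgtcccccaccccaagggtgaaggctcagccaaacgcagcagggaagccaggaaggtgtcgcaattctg
The motif was in 7639 of 32851 windows (23.3%), so its presence here is common. Among the 5 members whose promoters were used, 3 had it, Csf2ra, Csf2rb2 and Csf3r.

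**Figure D4:**
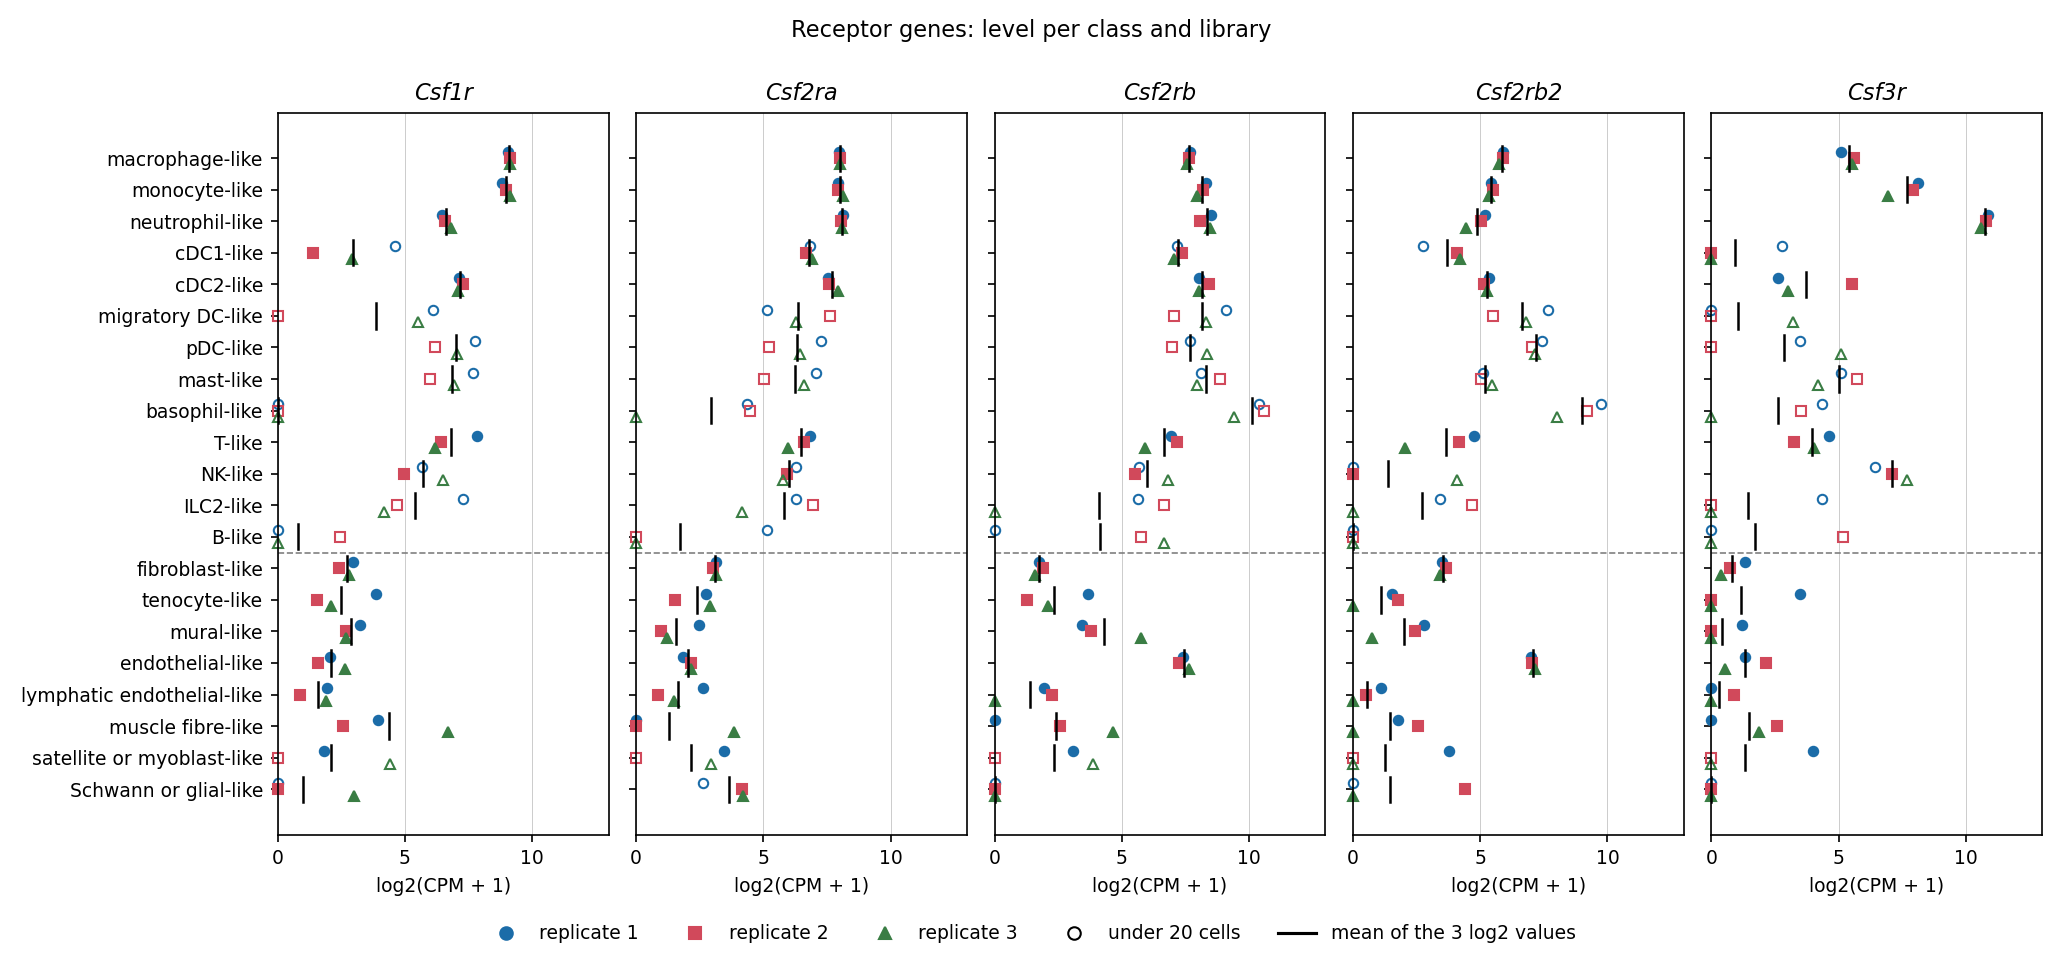
Level of each receptor gene, as log2(CPM + 1), in every named class and library, with open symbols for a class with under 20 cells in that library, black bars for the mean of the 3 log2 values and a dashed line between immune-like and stromal-like classes. Csf1r and Csf2ra are high across macrophage-like and monocyte-like cells, Csf2rb and Csf2rb2 also in endothelial-like cells, and Csf3r is highest in neutrophil-like cells.

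Neutrophil-like cells against all other immune-like cells gave 22.9% of genes higher and 38.0% lower. Of the 6 members tested 4 were higher and 1 was lower. Csf3r was 5.66 log2 higher (adjusted p = 1.87e-24) and Csf1 5.13 ± 0.159 log2 higher (SE; adjusted p = 4.05e-22), against 93, 82.8 and 50.7 CPM of Csf1 in the other immune-like cells. Csf1r was lower (-1.47 log2, adjusted p = 5.43e-12), a call that was lost with each class weighted equally (-0.45 log2, adjusted p = 0.146). Csf2rb was 1.49 log2 higher (adjusted p = 4.65e-12) and Csf2ra 1.03 log2 higher (adjusted p = 2.07e-09). The last pair depends on the scaling: with library totals only, which moves the median of all genes by -0.85 log2 and the share of calls that are higher from 37.6% to 19.1%, Csf2rb was 0.64 and Csf2ra 0.19 log2 higher, neither called. Csf2ra also missed the size for a call with no filter on low counts (0.71 log2) and with at least 1000 genes per cell (0.98 log2). Under the same scaling Csf2rb2 moved from 0.00 to -0.85 log2, with no call in either.

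Macrophage-like cells against all other immune-like cells gave 12.8% of genes higher and 18.2% lower, and of 6 members tested 1 was higher and 2 were lower. Csf1r was 1.21 ± 0.108 log2 higher (SE; adjusted p = 1.13e-05), against 264, 209 and 239 CPM in the other cells. Csf1 was lower (-2.75 log2, adjusted p = 7.72e-08), as was Csf3r (-3.59 log2, adjusted p = 1.89e-06). With each class weighted equally Csf1 was no longer called (-0.57 log2, adjusted p = 0.163), and the share of all calls that were higher went from 41.4% to 64.6%. Csf2ra, Csf2rb and Csf2rb2 were within 0.44 log2 and not called.

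Calls among macrophage-like subclusters were for Csf1 and Csf3r. Of 30 tests over 5 subclusters, 2 were higher and 2 lower, where 6.77% of all gene and subcluster tests were called. Subcluster 1 (Ccl24, Tarm1, Vcan) had 125, 89 and 57.5 CPM of Csf1, and subcluster 4 (Pdgfc, Ms4a7) had 8.78, 3.40 and 9.14 CPM. Subcluster 4 lay below the mean of the others (-3.32 log2, adjusted p = 2.9e-10). Its Csf1r was 634, 618 and 723 CPM, against 479, 507 and 496 CPM in subcluster 2 (Dnm3, Mmp12), with no call for either. Csf2rb was 243, 251 and 240 CPM in subcluster 1 and 146, 155 and 142 CPM in subcluster 4. Subcluster 6, whose leading genes G0s2 and S100a9 are neutrophil genes, had 238, 172 and 165 CPM of Csf1 and 230, 351 and 301 CPM of Csf3r, both called higher. Without the 3 subclusters led by genes of other cell types, 2550 macrophage-like cells had 75, 53.6 and 42.1 CPM of Csf1, 20.5, 22.1 and 27.5 CPM of Csf3r and 542, 571 and 573 CPM of Csf1r.

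**Figure D5:**
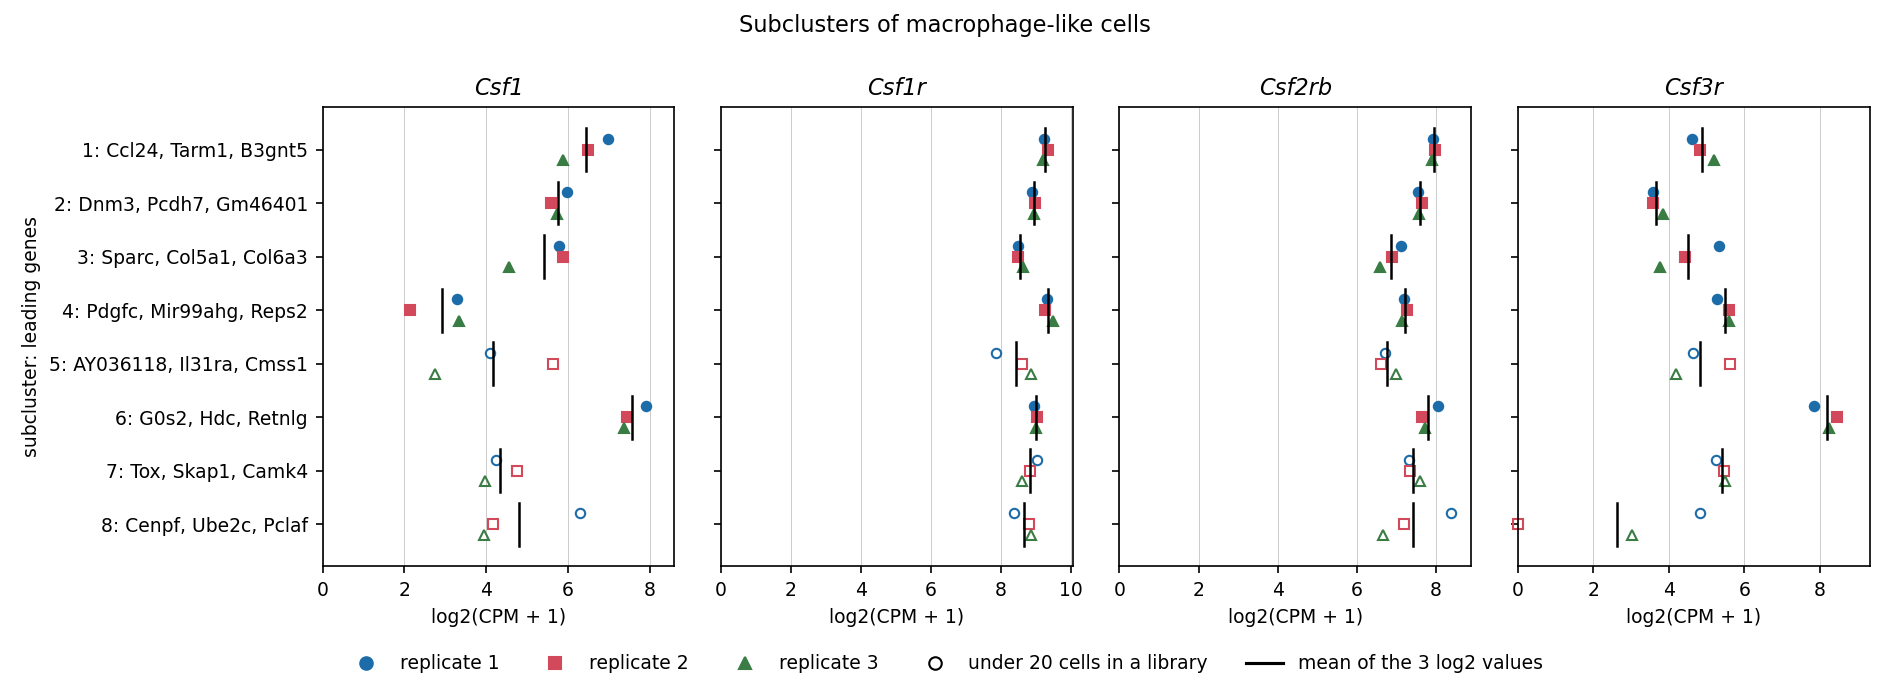
Level of members in the subclusters of macrophage-like cells, as log2(CPM + 1), each subcluster named by its leading genes, with 1 symbol per library, open where the subcluster has under 20 cells in a library, and black bars for the mean of the 3 log2 values. Csf1r differs little between subclusters 1, 2, 4 and 6, while Csf1 is low in subcluster 4 and Csf3r is high in subcluster 6.

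Monocyte-like cells, which give rise to tissue macrophages, were set against macrophage-like cells, where 10.3% of genes were higher and 12.5% lower. Csf3r was the 1 member called, 2.41 ± 0.247 log2 higher (SE; adjusted p = 1.5e-05). Csf2rb was 0.59 log2 higher in all 3 libraries (adjusted p = 0.000504) but under the size needed for a call, and Csf1r differed by -0.07 log2 (adjusted p = 0.513). In this class 96 cells came from clusters that also carried neutrophil markers, at 31273 to 44769 CPM. Those cells had 385, 423 and 328 CPM of Csf1 and 647, 783 and 694 CPM of Csf3r. The 462 cells without them had 98.4, 93 and 87.9 CPM of Csf3r, with neutrophil markers at 299 to 479 CPM. Without those clusters Csf1 lay below macrophage-like cells (-1.57 log2, adjusted p = 4.00e-05), in place of 0.62 log2 above them.

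Dendritic-like cells, summed over 3 classes, were set against macrophage-like cells, where 13.7% of genes were higher and 16.3% lower. Of 6 members tested 3 were lower. Csf1r was 101, 55 and 63.7 CPM, a difference of -2.97 log2 (adjusted p = 3.75e-06). That sum joined unlike classes, with Csf1r at 23.2, 1.61 and 6.55 CPM in cDC1-like and 139, 156 and 136 CPM in cDC2-like cells. Summed over the 3 classes, Csf1 was 2.48, 22.6 and 1.77 CPM (-3.01 log2, adjusted p = 0.00109), and Csf3r 4.97, 15.7 and 4.42 CPM (-2.43 log2, adjusted p = 0.000241). None of these overlapped the macrophage-like values. Csf2rb, at 249, 226 and 221 CPM, was not called (0.19 log2, adjusted p = 0.18), and Csf2ra, at 153, 136 and 157 CPM, differed by -0.82 log2, under the size for a call (adjusted p = 0.000458). The cDC2-like class also held neutrophil markers, most in replicate 2 (739, 1934 and 726 CPM, all 11 above 0), the library in which its Csf1 was 62.6 CPM against 3.87 and 0 in the other 2. The part of those markers in its Csf1 was not tested.

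Lymphoid-like cells against the other immune-like cells gave 11.5% of genes higher and 12.1% lower. Csf2 was the member called higher, with the limit from the filter given above. All 5 receptors were called lower, from -1.48 log2 for Csf2rb (adjusted p = 0.000105) to -2.44 log2 for Csf1r (adjusted p = 0.000257). Csf3r lost its call without replicate 1 (-1.49 log2, adjusted p = 0.0517). Csf1 was 61.5, 22.1 and 197 CPM in lymphoid-like cells, highest in replicate 3, and was not called (-1.30 log2, adjusted p = 0.12). Without replicate 3 it was called lower, at -2.42 log2 (adjusted p = 2.70e-05), as it was with each class weighted equally (-2.88 log2) and with no filter on low counts (-1.40 log2). With library totals only the median of all genes moved by 0.22 log2 and the share of calls that were higher went from 48.7% to 62.1%, and with each class weighted equally to 67.5%.

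The genes that act below these receptors were mostly immune-like. Of 15 genes of receptor-proximal signalling 11 were higher in immune-like than stromal-like cells and 0 lower, where 19.4% of all genes were higher and 29.7% lower. Their median was 3.51 log2 and that of all genes -0.12. Fgr, a kinase, and Vav1, an exchange factor of myeloid signalling, were 8.08 and 7.51 log2 higher, and Tyrobp, an adaptor of myeloid receptors, 8.0 log2 higher. Against the same 19.4% and 29.7%, of 9 feedback and STAT response genes 4 were higher (Osm 7.50, Pim1 2.02, Bcl2l1 1.62 and Mcl1 1.47 log2) and 3 were lower, all suppressors of cytokine signalling (Socs1 -3.31, Socs2 -2.25 and Socs3 -2.04 log2). Of 11 myeloid transcription factors 8 were higher and 0 lower, led by Spi1, which encodes PU.1 (8.19 log2), and Cebpe, a factor of granulocyte maturation (7.51 log2). Of the 3 genes for other IL-34 receptors and for CSF1R shedding, Adam17, a sheddase, was higher (1.32 log2) and Ptprz1, which encodes a receptor phosphatase that binds IL-34, was lower (-2.79 log2). In the shared beta chain family 2 of 4 genes could be tested, and the IL-5 gene Il5 was higher (3.48 log2).

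Within the immune-like cells the same lists split by class. In neutrophil-like cells 8 of 15 signalling genes were higher than in other immune-like cells and 1 was lower, where 22.9% of all genes were higher and 38.0% lower. Their median was 1.03 log2 and that of all genes -0.53. Lyn, a kinase of myeloid receptors, was 2.27 log2 higher, and Stat5a, a transcription factor of GM-CSF signalling, was lower (-1.17 log2). Of the feedback genes 5 were higher, among them Osm (2.82 log2), and Socs2 was lower (-2.39 log2). Of 10 tested transcription factors 3 were higher, Cebpb (2.30), Cebpe (1.97) and Spi1 (1.44 log2), and 4 were lower, among them Pparg (-5.42) and Irf8 (-4.65 log2). In monocyte-like against macrophage-like cells 5 of 15 signalling genes were higher, led by Lyn (2.12 log2), and 0 were lower, where 10.3% of all genes were higher and 12.5% lower. The monocyte-like side included the 96 cells of clusters that also carried neutrophil markers, and their part in these calls was not tested. Of 9 feedback genes 3 were higher in monocyte-like than macrophage-like cells and 1 was lower, Socs2 (-2.30 log2). Of 10 tested transcription factors 0 were higher and 2 lower, Cebpa and Bhlhe40, at -1.07 and -1.04 log2.

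The genes whose mean levels across the 11 tested classes were most like each member's are given as a description over 11 classes that share libraries and depth. Among 12510 genes, Ildr2 was closest to Il34 (Pearson r = 0.992), Clec12a to Csf1r (0.985), Evi2 to Csf2ra (0.988), Aim2 to Csf2rb (0.959), Ccl3 to Csf3r (0.989), Prnd to Csf3 (0.982) and Slc27a4 to Csf1 (0.934). For Csf2rb2 the closest was Chaf1b (0.866), and its paralogue Csf2rb was the third (0.856). Csf2 did not reach the level needed for this comparison.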

How the data were processed

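The deposited matrices hold raw UMI counts, 1 row per gene and 1 column per barcode, made by the authors with Cell Ranger; the file headers name version 7.0.0 and the submitters' processing notes 6.1.2, a difference that was not settled. No source used here gives the build, the annotation or the treatment of intronic reads. Of 32285 gene identifiers, 32158 were in the gene name table. The 9 members and all gene lists were chosen with earlier results of these data known.

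Barcodes passed with 500 or more UMIs, 200 or more genes and no more than 20% mitochondrial UMIs. Scrublet's scores were used to remove the highest-scoring cells at 0.8% per 1000 cells (295, 598 and 200 cells). The remaining cells were clustered in scanpy 1.11.5 (Python 3.11.15; 2000 variable genes, 30 components, 15 neighbours, Leiden resolution 1; subclusters 15 components, resolution 0.5), leaving out the members and pathway genes. Counts were summed per library and class, for sides or classes with at least 20 cells in every library. They were tested with edgeR 4.0.16 (R 4.3.3; filterByExpr, TMM factors, library as a block, quasi-likelihood test, Benjamini-Hochberg over all genes tested). The same number marks sums from the same cell suspension, which is the source of the block. The scripts were checked on simulated counts. Shares of cells were also computed after thinning each cell to 2000 UMIs, leaving out 36 neutrophil-like, 227 endothelial-like, 332 fibroblast-like and 377 macrophage-like cells that were shallower. Intervals and floors (3 counts) cover counting error only.

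The named genes are the 9 members. From the pathway lists they are genes called in the immune against stromal, monocyte against macrophage or neutrophil comparisons. The planned rule was at most 4 per list, which some lists exceed here. One gene that this rule names is not reported here. The genes most like a member were ranked among genes reaching 10 CPM in some class. Alternatives were DESeq2 1.42.0, other scalings, no filter on low counts, no block, leaving out each library, no doublet removal, at least 1000 genes per cell, classes weighted equally and mixed clusters left out. Scaling by library totals only and leaving out subclusters led by genes of another class were chosen after seeing the data. Promoter windows came from RefSeq tables of GRCm38.p6, from which promoters of 5 of the 9 members were used. The Csf2rb and Csf2rb2 transcripts came from GENCODE, the longest protein-coding transcript of each gene.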

Additional observations from a re-analysis of the deposited data

How the results depend on the processing

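Of 622 values of a member in a comparison under an alternative, 590 kept their direction and side of the threshold, 8 lost the call, 7 gained it and 17 changed sign. With classes weighted equally the calls numbered 5308 between immune-like and stromal-like cells (8649 in the main analysis) and 3241 for fibroblast-like cells (5129), where 80.9% of calls were higher. Under that weighting Csf3 changed sign in both, to 0.14 and 2.68 log2, as did Csf1r (-0.14) and Csf2rb2 (1.45) in fibroblast-like cells. Csf1r in fibroblast-like cells was also -0.58 log2 without doublet removal, and -0.018 to 0.75 log2 with 1 library left out, the lowest without replicate 2. Csf2ra lost its call there without doublet removal (0.32 log2, adjusted p = 0.354 by edgeR). Csf2rb2 in neutrophil-like cells, near 0 in the main analysis, was -0.027 with DESeq2, -0.32 with no filter, -0.016 without doublet removal, -0.18 to 0.084 with 1 library left out, -0.12 with at least 1000 genes per cell, -0.85 with library totals only and -0.012 without other-led subclusters. Csf2ra in monocyte-like cells was -0.077 with no filter, -0.0059 with library totals only and -0.024 without the mixed clusters; Csf1 there was -1.57 without them. The cause of these changes was not tested.

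Without the replicate block the calls were 8683, 5109, 3938, 7500, 2637, 3446 and 3148, in the order immune-like against stromal-like, fibroblast-like, macrophage-like, neutrophil-like, monocyte-like, dendritic-like and lymphoid-like, and it ended no call of a member in these comparisons. It ended 2 of the 24 calls in fibroblast-like subclusters (22) and moved the called neighbours to 21. Leaving out each library gave 8406 to 8742 calls for immune-like against stromal-like, 4724 to 5069 for fibroblast-like, 3709 to 4207 for macrophage-like, 6189 to 7462 for neutrophil-like, 2189 to 2834 for monocyte-like, 3159 to 3235 for dendritic-like and 2021 to 2817 for lymphoid-like cells. It gave 20 to 21 called neighbours in the class order, 20 to 22 calls in fibroblast-like and 4 to 5 in macrophage-like subclusters. Of 278 subcluster values 23 lost the call, among them Csf3 in fibroblast-like subcluster 7 under 5 alternatives.

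With immune and stromal cells rescaled to equal numbers, fibroblast-like cells held 59.3% of Csf1 UMIs, macrophage-like cells 83.2% of Csf1r and neutrophil-like cells 65.3% of Csf3r. Shares of cells with a UMI follow depth. Unthinned, and at 3000 UMIs, they were 81.5% and 75.2% for Csf1 in neutrophil-like, 76.0% and 40.6% for Il34 in mural-like, 92.4% and 76.4% for Csf1r and 86.7% and 52.2% for Csf2ra in monocyte-like, 91.6% and 65.9% for Csf2rb in cDC2-like, 47.9% and 30.2% for Csf2rb2 in endothelial-like and 95.4% and 94.7% for Csf3r in neutrophil-like cells. Unthinned shares were 1.12% for Csf2 in fibroblast-like and 16.6% for Csf3 in endothelial-like cells. Leaving out each library moved the share of UMIs held by fibroblast-like cells from 66.2% to 78.5% for Csf1 and from 26.5% to 41.5% for Csf2rb2.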

Other observations

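The 503 cells in clusters left unnamed carried both myeloid receptors and Csf1. Their Csf1 was 234, 176 and 159 CPM, their Csf1r 318, 300 and 298 CPM and their Csf3r 303, 272 and 208 CPM in replicates 1, 2 and 3. Csf2rb stood at 266, 248 and 243 CPM in them. Neutrophil markers summed to 7848 to 9706 CPM in the unnamed cells, and they held 16.6% of all Csf3r UMIs.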
